A study of Mus musculus with 3 samples.

Results

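Fibroblast growth factor (FGF) signalling was described in 9 genes of thawed mouse fetal ovarian somatic cells (FOSCs). The genes were chosen by name and not by their level, but with earlier results of these data known. They comprised 2 ligands (Fgf9 and Fgf10), 2 receptors (Fgfr1 and Fgfr2), 2 ETS transcription factors (Etv4 and Etv5) and 3 negative feedback regulators (Dusp6, Spry2 and Spry4). All 9 were listed in the count tables of all 3 lots, out of 18738 genes listed in any lot. UMI (unique molecular identifier) counts were measured by 10X Genomics 3′ single-cell RNA-seq in lots 26, 29 and 30. Each lot was a pool of ovaries from the E12.5 embryos of 10 pregnant CD1 mice. The mesonephros was cut away, SSEA1- and CD31-labelled cells were depleted on a magnetic column, and the cells were frozen and thawed. There was no treatment, no genetic change and no control group, so the lots were replicates and cell types within a lot were compared.

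FGF ligands bind receptor tyrosine kinases at the cell surface with heparan sulphate as a co-factor. The receptors act through the Ras and MAP kinase cascade, which raises transcription of ETS factors such as Etv4 and Etv5 and of genes that damp the same cascade. Dusp6 is a phosphatase that inactivates ERK, and the Sprouty proteins Spry2 and Spry4 hold back signalling between receptor and kinase. In the fetal gonad Fgf9 is known for its role in testis determination, where it supports the Sertoli cell programme through Fgfr2.

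Across the lots, 28971 of 29103 barcodes were kept, with 8553 to 10707 cells and a median of 8949 to 11595 UMIs per cell in a lot. Pairs of lots shared 19 to 30 kept barcodes. The cells formed 22 clusters, of which 20 were named from marker genes and called "-like". The 9 FGF genes and 81 further pathway genes listed in the tables were held out of the clustering, so that they did not define a class. Pre-granulosa-like cells were 3348 to 4609 per lot, stromal-like cells 1856 to 2286 and epithelial-like cells 1596 to 2444. Levels are given as CPM, the UMIs of a gene in every 1000000 UMIs of that class in that lot, as mean ± SD over 3 lots unless each lot is given. Levels were not compared between genes. Genes held out as a check were highest in the class they mark (Wnt4 and Foxl2 in pre-granulosa-like, Upk3b and Krt19 in epithelial-like, Nr2f2 and Col1a1 in stromal-like cells). The exception was Tcf21, a stromal marker, at 279.3 CPM in steroidogenic-like and 262.5 CPM in stromal-like cells. Germ-like and endothelial-like cells had passed the depletion of SSEA1- and CD31-labelled cells, so their numbers do not reflect the ovary. Sertoli-like cells, a testis cell type, held UMIs of 7 of 7 Sertoli markers in each lot, summing to 5178 to 7462 CPM against 95.6 to 134.5 CPM in pre-granulosa-like cells. Their number moved with that of steroidogenic-like cells, at 90, 285 and 16 against 124, 250 and 32 cells in lots 26, 29 and 30. Every CPM value is a sum over cells, so fewer cells with an RNA and less RNA per cell cannot be told apart in it.

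Among the named classes, Fgf9 was high in Sertoli-like and mesonephric tubule-like cells, intermediate in epithelial-like cells and low in the others. Cells of the clusters left without a name lay between the epithelial-like and the low classes, at 7.42, 7.57 and 8.42 CPM in lots 26, 29 and 30. In Sertoli-like cells its level was 52.7 CPM in lot 26, 111.8 CPM in lot 29 and 88.6 CPM in lot 30. In mesonephric tubule-like cells it was 68.5, 49.97 and 119 CPM in the same order, from 18 to 39 cells per lot. In epithelial-like cells it was 18.9, 20.8 and 16.6 CPM. The first 2 classes overlapped each other, and both lay above every epithelial-like value. The other 7 classes had means of 1.225 to 3.41 CPM and overlapped with their neighbours in the order. Pre-granulosa-like cells were among them at 1.63, 1.65 and 1.89 CPM. A UMI of Fgf9 was found in 61.5% ± 10.0 of Sertoli-like cells, at a median of 11411 to 14228.5 UMIs per cell. The share was 1.71% in pre-granulosa-like cells, at a median of 8319 to 11233 UMIs. It was also found in 1 of the 75 red blood cell-like cells, which should lack the gene, at a median of 7490.5 to 11455 UMIs. After every cell was thinned to 4000 UMIs, with 835 shallower cells left out, the share was 23.9% in Sertoli-like and 0.710% in pre-granulosa-like cells.

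Within the epithelial-like class, Fgf9 and Fgf10 were both highest in cluster 9. The other leading genes of this cluster of 1224 cells included Krt19, Hoxd11 and Hand2. Fgf9 was 48.99, 48.3 and 49.3 CPM there in lots 26, 29 and 30. In the other 3 epithelial-like clusters its means were 9.59 to 18.6 CPM, so the highest cluster held 5.10 times the lowest. Fgf10 is a mesenchymal ligand that acts mainly on the epithelial form of Fgfr2. It was 9.42, 10.6 and 9.25 CPM in cluster 9 and 1.03 to 4.27 CPM in the means of the other 3. In all 3 lots cluster 9 lay above each other epithelial-like cluster for both ligands. Fgfr2 had the opposite order, with a mean of 48.97 CPM in cluster 9 and 69.6 to 89.9 CPM in the other 3. These cluster values are a description with no test.

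Over all classes Fgf10 had its highest level in steroidogenic-like cells, at 9.34 CPM in lot 26, 10.97 CPM in lot 29 and 18.9 CPM in lot 30. The value of lot 30 rests on 6 UMIs in 32 cells. On average over the lots, 10.9% of steroidogenic-like cells had a UMI. The class differed by lot, with 7 steroidogenic markers summing to 3286 CPM in lot 26 and to 882.2 and 880.2 CPM in lots 29 and 30. Its 9 stromal markers summed to 1878, 1663 and 2372 CPM, below the 3716 to 3998 CPM of stromal-like cells. The part of this difference in the levels of Fgf10 and Dusp6 was not tested. Epithelial-like cells followed at 3.78, 5.38 and 3.28 CPM, below every steroidogenic-like value. Stromal-like cells had 2.04 ± 1.01 CPM. Pre-granulosa-like cells had 0.183 ± 0.0822 CPM, with a UMI in 0.189% of cells, and no UMI was found in red blood cell-like cells. A count of 3 in a red blood cell-like sum corresponds to 7.96 to 16.2 CPM, so a lower level was not detectable there.

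**Figure D1:**
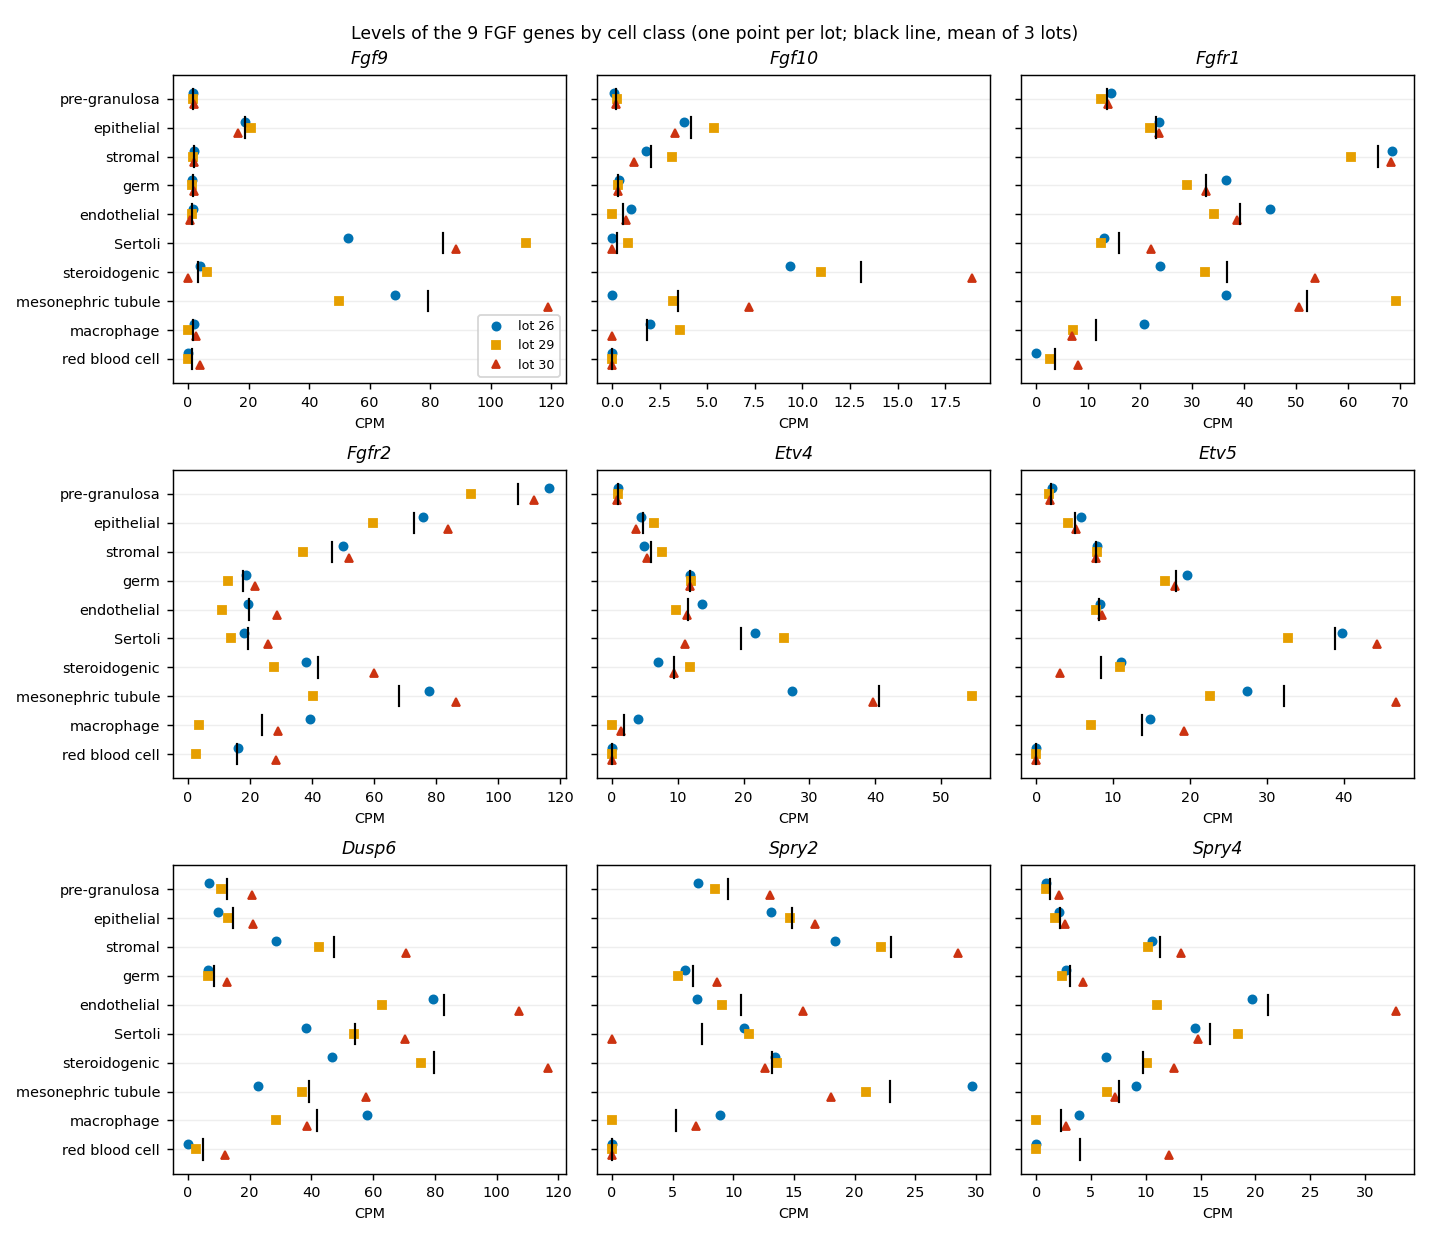
CPM (linear axis, its range set by each gene) of the 9 FGF genes in 10 classes. Each point is 1 lot and the black line is the mean of 3 lots. Fgf9 stands out in Sertoli-like and mesonephric tubule-like cells. Fgfr2 has its highest mean in pre-granulosa-like cells. Fgfr1 has its highest mean in stromal-like cells, which overlap with mesonephric tubule-like cells.

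The receptors had different orders. Fgfr2 was highest in pre-granulosa-like cells in all 3 lots, at 116.3 CPM in lot 26, 91.2 CPM in lot 29 and 111.5 CPM in lot 30. Epithelial-like cells followed at 75.8, 59.5 and 83.8 CPM, and stromal-like cells had 49.97, 37.2 and 51.9 CPM. No pre-granulosa-like value overlapped with an epithelial-like one, and no epithelial-like value overlapped with a stromal-like one. Mesonephric tubule-like cells (68.2 ± 24.5 CPM) overlapped with both. Fgfr2 was 19.2 ± 6.12 CPM in Sertoli-like cells and 19.6 ± 8.80 CPM in endothelial-like cells. Its level in the germ-like class was 17.8 ± 4.48 CPM. Red blood cell-like cells, which should lack the gene, had 15.7 ± 12.8 CPM from 1 to 7 UMIs per lot, and these 4 classes overlapped. Lot 29 had the lowest Fgfr2 of the lots in 10 of 10 classes. The ratio of pre-granulosa-like to stromal-like levels within a lot was 2.33, 2.45 and 2.15.

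The gene model of Fgfr2 (ENSMUSG00000030849, GRCm38 chromosome 7, 130162451 to 133123350, minus strand) shares 314 exonic bases with Ctbp2 on the same strand in GENCODE M21. How the counting treated reads there is not given in the sources used here. The clusters left without a name held the highest Fgfr2 of all. Cluster 11, led by Pax8 and Aldh1a3, had a mean of 126.9 CPM. Cluster 12 had 227.4 CPM, but its cells had a median UMI count of 0.242 times that of their lots.

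Fgfr1 had its highest mean in stromal-like cells, at 68.4, 60.5 and 68.3 CPM in lots 26, 29 and 30. Its level in pre-granulosa-like cells was 14.4, 12.5 and 13.8 CPM, and no value of the 2 classes overlapped. Mesonephric tubule-like cells (52.1 ± 16.45 CPM) overlapped with stromal-like cells and were the higher of the pair in lot 29. Endothelial-like (39.3 ± 5.41 CPM), steroidogenic-like (36.7 ± 15.3 CPM) and germ-like cells (32.7 ± 3.77 CPM) overlapped with one another. Epithelial-like cells were lower at 23.1 ± 1.025 CPM, below every germ-like value. Among the 5 stromal-like clusters Fgfr1 ranged from 48.6 CPM in cluster 3 to 122.4 CPM in cluster 10, whose leading genes were Lum and Ntrk2. Fgfr2 was lowest in the same cluster 10, at 28.9 CPM, and highest in cluster 16, at 84.7 CPM. The cells of cluster 10 had a median UMI count 0.565 times that of their lots, and those of cluster 16 had 1.58 times.

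**Figure D2:**
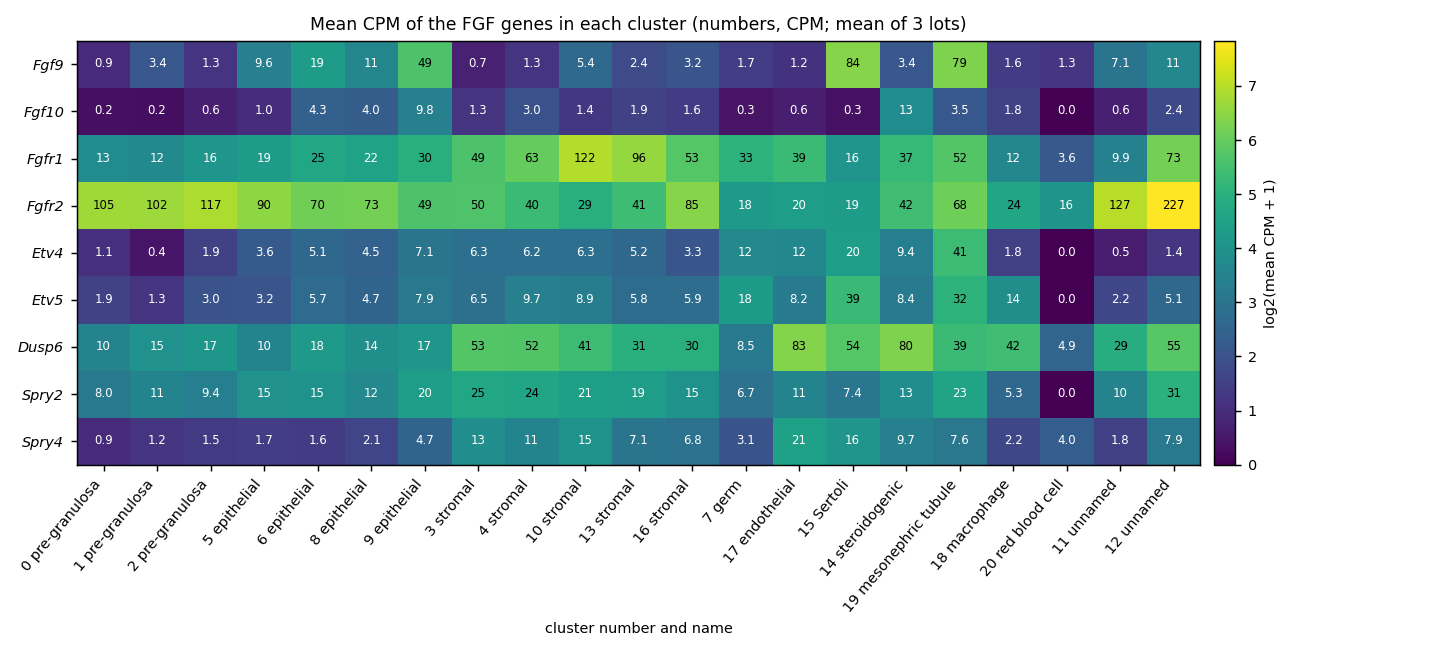
Mean CPM over 3 lots of each FGF gene (rows) in 21 clusters (columns, grouped by class). Colour is log2(mean CPM + 1) and the printed numbers are CPM. Fgf9 reaches 48.9 CPM in epithelial-like cluster 9 and Fgfr1 reaches 122.4 CPM in stromal-like cluster 10.

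Etv4 and Etv5 are ETS factors that are widely used as readouts of FGF signalling. Among the classes compared, both had their lowest means in pre-granulosa-like cells, apart from red blood cell-like cells. Neither had a UMI there, where 3 counts would be 7.96 to 16.2 CPM. In the clusters left without a name, Etv4 was 1.28, 0 and 0.957 CPM and Etv5 4.86, 0 and 3.44 CPM in lots 26, 29 and 30. Etv4 was 27.4, 54.8 and 39.7 CPM in mesonephric tubule-like cells in lots 26, 29 and 30. It was 21.7, 26.2 and 11.1 CPM in Sertoli-like cells, and 11.9, 11.98 and 11.8 CPM in germ-like cells. In pre-granulosa-like cells it was 0.913, 0.928 and 0.678 CPM. Mesonephric tubule-like values lay above all others, and pre-granulosa-like values lay below all stromal-like (5.94 ± 1.497 CPM) and epithelial-like (4.78 ± 1.40 CPM) values. Stromal-like and epithelial-like values overlapped, and so did those of pre-granulosa-like and macrophage-like cells (1.77 ± 2.00 CPM, from 0 to 4 UMIs per lot).

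Etv5 had a similar order. Sertoli-like cells had 39.7, 32.8 and 44.3 CPM and mesonephric tubule-like cells 27.4, 22.6 and 46.9 CPM, which overlapped. Germ-like cells followed at 19.6, 16.8 and 18.1 CPM, below both, and overlapped with macrophage-like cells (13.7 ± 6.14 CPM). Stromal-like cells (7.85 ± 0.0683 CPM), epithelial-like cells (5.05 ± 0.875 CPM) and pre-granulosa-like cells (1.88 ± 0.194 CPM) did not overlap with one another. Across 21 clusters the Pearson correlation of log2(CPM + 1) between Etv4 and Etv5 was 0.876, the highest of 36 pairs of the 9 genes. The median over the pairs was 0.386. The clusters share 3 libraries, so this is a description of these cells.

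Dusp6 had its highest means in endothelial-like and steroidogenic-like cells. It was 79.3, 62.7 and 107.2 CPM in endothelial-like cells in lots 26, 29 and 30, and 46.7, 75.5 and 116.7 CPM in steroidogenic-like cells. The steroidogenic-like value of lot 30 rests on 37 UMIs in 32 cells. Stromal-like cells had 28.5, 42.6 and 70.5 CPM. Among these 3 classes the endothelial-like class was the highest in lot 26 and the steroidogenic-like class in lots 29 and 30, and all of them overlapped with Sertoli-like cells (54.1 ± 15.95 CPM). Epithelial-like cells had 9.76, 13.0 and 21.1 CPM and pre-granulosa-like cells 6.79, 10.8 and 20.6 CPM. These last classes overlapped with each other and lay below every stromal-like value. Within a lot the stromal-like level was 4.20, 3.94 and 3.43 times the pre-granulosa-like level.

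Spry4 shared part of this order, with 19.7, 10.99 and 32.9 CPM in endothelial-like and 14.5, 18.5 and 14.8 CPM in Sertoli-like cells. Stromal-like cells had 11.3 ± 1.63 CPM. Epithelial-like (2.15 ± 0.457 CPM) and pre-granulosa-like cells (1.28 ± 0.687 CPM) were low and overlapped. Across the 21 clusters Spry4 correlated with Dusp6 at r = 0.781 and with Fgfr1 at r = 0.695. Spry2 was 18.4, 22.1 and 28.5 CPM in stromal-like cells and 22.9 ± 6.07 CPM in mesonephric tubule-like cells, which overlapped. Epithelial-like cells had 13.1, 14.7 and 16.7 CPM and pre-granulosa-like cells 7.10, 8.49 and 13.0 CPM. Each of these lay below the class before it in every lot. Spry2 correlated with Fgfr1 across clusters at r = 0.836.

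Lot 30 had the highest Dusp6 in 9 of 10 classes, the exception being macrophage-like cells. It had the highest Spry4 in 7 of 10 classes and the highest Spry2 in 5 of 9 classes with a UMI. Fgfr2 was also highest in lot 30 in 8 of 10 classes. The summed level of 18 stress and immediate early genes was highest in lot 30 in 10 of 10 classes. In pre-granulosa-like cells this list stood at 6831, 7786 and 14280 CPM, in stromal-like cells at 5932, 8650 and 15040 CPM and in epithelial-like cells at 5396, 7392 and 13790 CPM. Lot 30 also held 2904 of the 3119 cells of pre-granulosa-like cluster 2, whose leading genes include the heat shock genes Hspa1a, Hspa1b and Hspb1. Etv5 had its highest level in lot 30 in 4 of 9 classes, and Etv4 was highest in lot 30 in 0 of 9. Lot 30 had the highest median UMIs per cell (11595) and lot 29 the lowest (8949). The part of the stress genes and of depth in the levels of Dusp6, Spry2, Spry4 and Fgfr2 was not tested. With 1 library per lot, lots were not compared by a test.

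**Figure D3:**
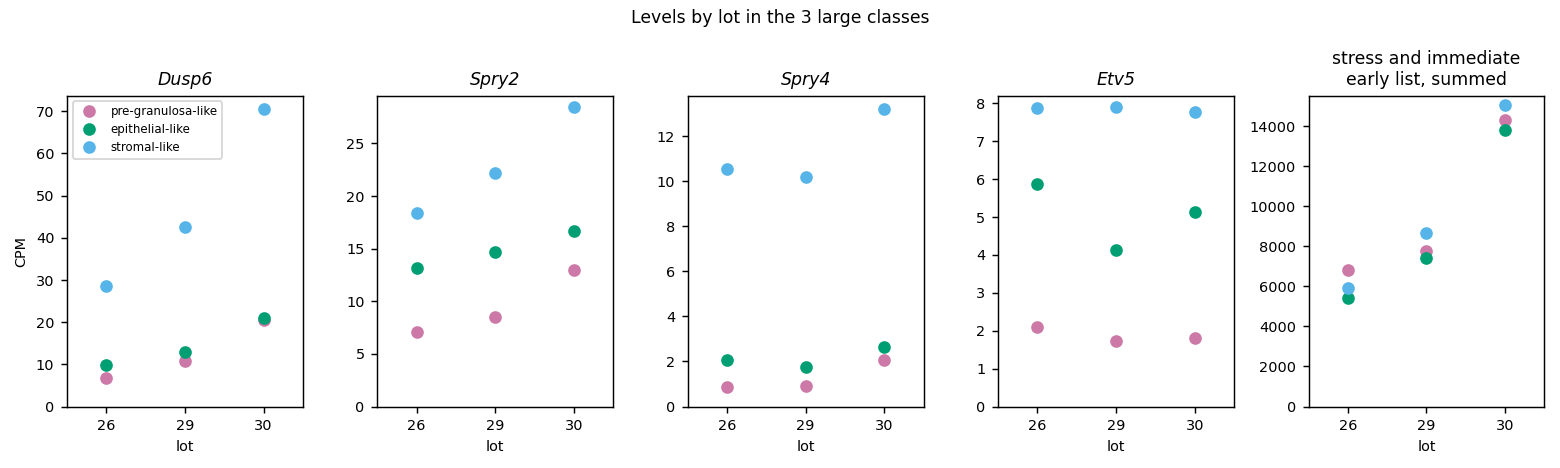
CPM (y axis, starting at 0) by lot (x axis) of Dusp6, Spry2, Spry4 and Etv5, and the summed CPM of 18 stress and immediate early genes, in the 3 large classes (colours). Dusp6, Spry2 and the stress list are highest in lot 30 in each class, and the order of the classes for Dusp6 is the same in each lot.

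On GRCm38, with the gene models of GENCODE M21, all 9 genes are protein coding. The ligand genes lie at chr14:58070547-58112720 on the plus strand (Fgf9) and chr13:118669791-118792115 on the plus strand (Fgf10), and Fgfr1 lies at chr8:25513654-25575718 on the plus strand. Etv4 lies at chr11:101769742-101785371 and Etv5 at chr16:22381309-22439719, both on the minus strand. Dusp6 lies at chr10:99263231-99267489 on the plus strand and Spry2 at chr14:105891947-105896819 on the minus strand. The upstream sequences of Dusp6 and Spry2 are shown because both feedback genes were higher in stromal-like than in pre-granulosa-like cells in every lot. RefSeq promoter windows on GRCm38.p6 were matched for 6 of the 9 genes, giving 7 windows. The 250 bases before each start site were searched on both strands for the ETS core GGAA and for the longer motif CCGGAA, which contains it. GGAA was found in 93.4% of 32851 windows and in 6 of the 7 member windows. CCGGAA was found in 12% of all windows and in 0 of the 7, and GGAA was added once that was known. The windows below lie at chr10:99262981-99263230 on the plus strand for Dusp6, with 6 matches of GGAA, and at chr14:105896820-105897069 on the minus strand for Spry2, with 3. Capitals mark GGAA or its reverse complement, and the start site follows the last base.
Dusp6: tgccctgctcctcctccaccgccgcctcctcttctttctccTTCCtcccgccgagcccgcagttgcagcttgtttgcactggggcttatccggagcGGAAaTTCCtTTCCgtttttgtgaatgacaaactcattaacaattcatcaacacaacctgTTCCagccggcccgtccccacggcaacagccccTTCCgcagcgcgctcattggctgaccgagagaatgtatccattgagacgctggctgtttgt
Spry2: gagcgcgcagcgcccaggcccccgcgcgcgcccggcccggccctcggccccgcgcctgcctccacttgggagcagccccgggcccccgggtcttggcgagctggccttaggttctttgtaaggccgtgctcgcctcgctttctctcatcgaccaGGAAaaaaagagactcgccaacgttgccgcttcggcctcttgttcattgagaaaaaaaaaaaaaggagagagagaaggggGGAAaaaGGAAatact

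The classes were then compared in one edgeR quasi-likelihood fit on 18 sums of UMI counts, 6 classes in 3 lots, over 14861 genes, and all adjusted p-values below are Benjamini-Hochberg values from this fit. The lots come from separate pools of embryos, but the classes of a lot share that pool. Pre-granulosa-like against epithelial-like cells was the first comparison. Of the 9 genes, 1 was higher and 6 were lower in pre-granulosa-like cells, where 25.9% of all genes were higher and 20.7% were lower. The median log2 fold change was -0.70 over the 9 genes and 0.05 over all genes tested. Fgf10 was lowest with a log2 fold change of -4.41 (SE 0.41, adjusted p = 2.17e-08), followed by Fgf9 at -3.37 (SE 0.22, adjusted p = 1.84e-10). Etv4 fell by 2.45 (SE 0.26) and Etv5 by 1.35 (SE 0.13) on the log2 scale. Fgfr1 was lower at -0.70 (SE 0.09) and Fgfr2 was higher at 0.61 (SE 0.16, adjusted p = 0.00292). The ratio for Fgfr2 was 1.53, 1.53 and 1.33 within lots, and without lot 26 its call was lost (0.53, adjusted p = 0.0908). Spry2 was lower at -0.57 (SE 0.23, adjusted p = 0.0455), a call that was lost without lot 26 (-0.51, adjusted p = 0.121), without lot 29 (-0.49, adjusted p = 0.237), without epithelial-like cluster 9 (-0.49, adjusted p = 0.0842) and under DESeq2 (-0.60, adjusted p = 0.0646). Dusp6 (-0.14, SE 0.36) and Spry4 (-0.65, SE 0.31) did not pass, and Spry4 passed with the lot as a block (adjusted p = 0.00818), without lot 30 (-1.04, adjusted p = 0.0119) or without pre-granulosa-like cluster 2 (-0.98, adjusted p = 0.0105).

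The contrast of pre-granulosa-like with stromal-like cells gave 1 gene higher, 7 lower and 1 not called, against 27.7% higher and 23.2% lower among all genes. The balance over all genes turned with DESeq2 size factors, from 4120 higher and 3452 lower to 3746 higher and 3939 lower. The median was -1.91 over the 9 genes and 0.04 over all genes. All 3 feedback genes were lower in pre-granulosa-like cells, Spry4 by a log2 fold change of -2.94 (SE 0.29, adjusted p = 3.76e-08), Dusp6 by -1.73 (SE 0.35) and Spry2 by -1.11 (SE 0.23). Both ETS factors were lower, Etv4 at -2.68 (SE 0.26) and Etv5 at -1.91 (SE 0.13, adjusted p = 1.19e-10). The receptors moved in opposite directions. Fgfr1 was at -2.13 (SE 0.09, adjusted p = 1.86e-13) and Fgfr2 at 1.35 (SE 0.16, adjusted p = 4.5e-07). Fgf10 was at -3.27 (SE 0.43), from 4 to 12 UMIs per lot in pre-granulosa-like cells. Fgf9 was not called at 0.02 (SE 0.26), both classes being at 1.625 to 1.999 CPM. With 30 principal components Fgf9 was lower in pre-granulosa-like cells in the edgeR fit (-0.78, adjusted p = 0.0119). The mesonephric tubule-like class had no value in that setting, and its part in this result was not tested.

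Stromal-like against epithelial-like cells completed the 3 large classes, with 4 of the 9 genes higher, 3 lower and 2 not called (all genes: 17.1% higher and 15.6% lower). Spry4 was higher in stromal-like cells by 2.29 (SE 0.28), Dusp6 by 1.60 (SE 0.36), Fgfr1 by 1.43 (SE 0.09) and Etv5 by 0.55 (SE 0.12). Fgf9 was lower at -3.39 (SE 0.23, adjusted p = 6.55e-10), Fgf10 at -1.14 (SE 0.32) and Fgfr2 at -0.74 (SE 0.16). The medians were 0.55 over the 9 genes and -0.01 over all genes. Fgf10 lost its call without lot 26 (-1.12, adjusted p = 0.0583), without lot 30 (-0.96, adjusted p = 0.129) and without epithelial-like cluster 9 (-0.75, adjusted p = 0.0865). Spry2 was not called at 0.55 (SE 0.22, adjusted p = 0.0681), and it passed with the lot as a block (0.54, adjusted p = 0.00015), with called doublets removed (0.63, adjusted p = 0.0268), without epithelial-like cluster 9 (0.62, adjusted p = 0.038) and without stromal-like cluster 16 (0.60, adjusted p = 0.0417). Etv4 was not called at 0.23 (SE 0.23).

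Sertoli-like and pre-granulosa-like cells, the supporting cells of testis and ovary, were compared next. Only 16 Sertoli-like cells came from lot 30. Of the 9 genes 5 were higher and 1 was lower in Sertoli-like cells, where 15.5% of all genes were higher and 22.6% were lower, and the medians were 1.83 and -0.16. Fgf9 was higher by a log2 fold change of 5.50 (SE 0.25, adjusted p = 5.41e-13), with ratios of 32.5, 67.8 and 47 within lots. Etv4 was higher by 4.67 (SE 0.31), Etv5 by 4.13 (SE 0.15) and Spry4 by 3.53 (SE 0.38). Dusp6 was higher by 1.83 (SE 0.44, adjusted p = 0.00246), and without lot 29 it was not called (1.44, adjusted p = 0.265). Fgfr2 was the gene that was lower, at -2.85 (SE 0.23, adjusted p = 4.63e-09). Fgfr1 (-0.15, SE 0.15), Spry2 (-0.003, SE 0.37) and Fgf10 (1.51, SE 1.21) were not called. Spry2 was 10.8 and 11.3 CPM in lots 26 and 29 and 0 in lot 30, where 3 counts would be 11.1 CPM. Total-UMI scaling in place of TMM moved every log2 fold change of this contrast by 0.20, and DESeq2 size factors moved the median of all genes from -0.16 to -0.05. Neither changed the direction of any of the 6 genes called.

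**Figure D4:**
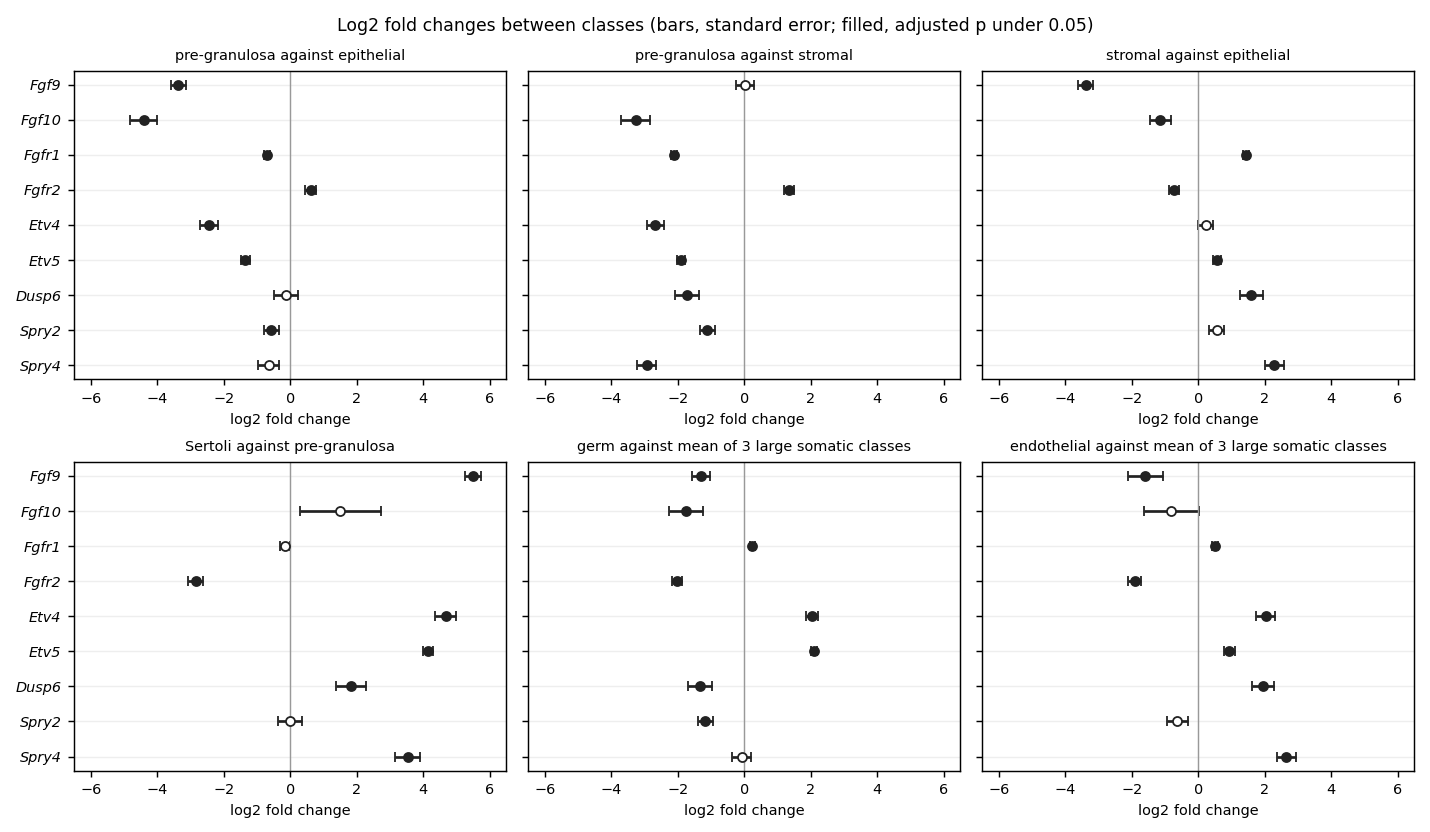
Log2 fold changes (x axis) of the 9 genes in 6 contrasts, with standard errors as bars. Filled points passed an adjusted p of 0.05 in the edgeR fit. In Sertoli-like against pre-granulosa-like cells Fgf9, Etv4, Etv5, Spry4 and Dusp6 lie to the right and Fgfr2 to the left.

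Germ-like cells were compared with the mean of the 3 large somatic classes. The germ-like class differed from the soma in most genes (38% of all genes higher and 39.4% lower), and 3 of the 9 genes were higher and 5 lower. Over all genes, 5643 higher and 5849 lower became 6015 higher and 5486 lower with DESeq2 size factors. Etv5 was higher by 2.09 (SE 0.09, adjusted p = 7.81e-14) and Etv4 by 2.04 (SE 0.19, adjusted p = 3.74e-09). Fgfr1 was higher by 0.24 (SE 0.08, adjusted p = 0.00737), a call that was lost without lot 26 (0.18, adjusted p = 0.134), at resolution 0.4 (0.17, adjusted p = 0.0513) and with called doublets removed (0.17, adjusted p = 0.078). It was higher than the mean but not than each class. Germ-like cells had 36.5, 28.9 and 32.7 CPM in lots 26, 29 and 30, below stromal-like cells at 68.4, 60.5 and 68.3 CPM. Fgfr2 (-2.01, SE 0.15), Fgf10 (-1.76, SE 0.50), Dusp6 (-1.34, SE 0.36), Fgf9 (-1.31, SE 0.27) and Spry2 (-1.18, SE 0.23) were lower. Of these, Fgfr2, Dusp6 and Spry2 were below each of the 3 classes in every lot. Fgf9 (1.39, 1.46 and 2.12 CPM) overlapped with pre-granulosa-like (1.63, 1.65 and 1.89 CPM) and stromal-like cells (1.999, 1.78 and 1.87 CPM). Fgf10, from 2 to 7 UMIs per lot, was 0.389, 0.292 and 0.302 CPM. It was not below pre-granulosa-like cells (0.0891, 0.241 and 0.220 CPM). In lot 29 its 2 UMIs in germ-like cells lay under the floor of 3 counts, which would be 0.438 CPM. Spry4 was not called (-0.08, SE 0.29). The median was -1.18 over the 9 genes and -0.05 over all genes.

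Endothelial-like cells against the same mean had 5 of the 9 genes higher and 2 lower, with 17.9% of all genes higher and 23.5% lower. Of the calls over all genes 43.3% were higher, and 54.1% with DESeq2 size factors, which moved the median of all genes from -0.14 to -0.02. Spry4 was higher by 2.65 (SE 0.29, adjusted p = 2.41e-07), Etv4 by 2.03 (SE 0.28), Dusp6 by 1.94 (SE 0.32), Etv5 by 0.93 (SE 0.17) and Fgfr1 by 0.51 (SE 0.10). For Fgfr1, endothelial-like cells (45.0, 34.3 and 38.6 CPM) lay below stromal-like cells (68.4, 60.5 and 68.3 CPM) in every lot. Etv5 in endothelial-like cells (8.335, 7.756 and 8.574 CPM) overlapped with stromal-like cells (7.875, 7.895 and 7.768 CPM). Fgfr2 was lower at -1.92 (SE 0.19) and Fgf9 at -1.59 (SE 0.54, adjusted p = 0.0221), the latter not called without lot 30 (-1.31, adjusted p = 0.146). Fgf9 in endothelial-like cells (1.67, 1.29 and 0.7145 CPM) overlapped with pre-granulosa-like cells (1.63, 1.65 and 1.89 CPM). Spry2 (-0.64, SE 0.32) and Fgf10 (-0.81, SE 0.84) were not called, and Spry2 passed with the lot as a block (-0.59, adjusted p = 0.0313). The median over the 9 genes was 0.51.

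The other genes of the pathway were read from a list of 83, of which 81 were listed and 69 could be tested. In pre-granulosa-like against stromal-like cells 15 were higher and 29 lower, where 27.7% of all genes were higher and 23.2% lower. In stromal-like against epithelial-like cells 22 were higher and 10 lower (all genes 17.1% and 15.6%). The split was 13 higher and 16 lower for pre-granulosa-like against epithelial-like cells (all genes 25.9% and 20.7%) and 16 and 17 for Sertoli-like against pre-granulosa-like cells (all genes 15.5% and 22.6%). It was 21 and 38 for germ-like cells (all genes 38% and 39.4%) and 21 and 20 for endothelial-like cells (all genes 17.9% and 23.5%). Their medians ranged from -0.43 in germ-like cells to 0.14 in stromal-like against epithelial-like cells.

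Among the ligands, Fgf18 was 19.6 ± 0.251 CPM in epithelial-like cells, lower in stromal-like cells by a log2 fold change of -2.38 (SE 0.20) and higher in Sertoli-like than in pre-granulosa-like cells by 2.22 (SE 0.23). Fgf2 was 15.8 ± 1.88 CPM in epithelial-like and 3.07 ± 0.395 CPM in pre-granulosa-like cells (log2 fold change -2.28, SE 0.19), with 25.0 ± 4.65 CPM in stromal-like cells. Fgf1 and Fgf5 were low throughout the large classes, at means of 0.210 to 2.24 CPM, and were lower in pre-granulosa-like than in epithelial-like cells at -2.47 (SE 0.37) and -3.11 (SE 0.52). Fgf5 was also lower in stromal-like than in epithelial-like cells (-1.42, SE 0.48, adjusted p = 0.0308), at 0.440 against 2.75 CPM in lot 26 and 0.366 against 1.97 CPM in lot 30. In lot 29 the 2 classes were at 2.08 and 2.00 CPM, so the lower level was seen in 2 of 3 lots. Fgf1 was lower in germ-like cells (-2.75, SE 0.57), from 4 UMIs in germ-like cells, none of them in lot 29. Germ-like values (0.0556, 0 and 0.302 CPM) overlapped with pre-granulosa-like ones (0.223, 0.206 and 0.202 CPM). Fgf8, a ligand of many embryonic signalling centres, was 5.95, 6.58 and 4.63 CPM in germ-like cells against 0.0595 to 0.155 CPM in the means of the large classes (5.81, SE 0.25, adjusted p = 3.63e-14), and Fgf17, of the same subfamily, was higher by 3.58 (SE 0.35). Fgf3 was called lower in Sertoli-like cells (adjusted p = 0.0146), where it had 0 UMIs in each lot. Pre-granulosa-like cells were at 0.869 CPM, 1.53 times the level that 3 counts over the 3 lots would give in Sertoli-like cells. Fgf13 and Fgf11, intracellular relatives that do not act as secreted ligands, are further members of the family. Fgf13 was higher in Sertoli-like cells by 4.15 (SE 0.21) and Fgf11 was lower in endothelial-like cells at -1.95 (SE 0.50). The Fgf11 value rests on 9 UMIs in endothelial-like cells, none of them in lot 30.

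Of the other receptors, Fgfr3 was 19.5, 14.8 and 21.8 CPM in germ-like cells and higher there than in the large somatic classes by 2.78 (SE 0.17, adjusted p = 6.15e-12). Fgfr4 was 3.69 ± 0.897 CPM in stromal-like cells and 0.247 ± 0.0567 CPM in pre-granulosa-like cells, a log2 fold change of -3.68 (SE 0.31). It was also higher in stromal-like than in epithelial-like cells by 2.30 (SE 0.28) and in Sertoli-like than in pre-granulosa-like cells by 2.73 (SE 0.60), the latter from 10 UMIs in Sertoli-like cells, none of them in lot 30. Spry1, a further Sprouty gene, was 24.9 ± 3.86 CPM in stromal-like cells and lower in pre-granulosa-like cells at -3.11 (SE 0.30, adjusted p = 2.26e-08). Lzts1 had the reverse order. It was 75.4 ± 9.05 CPM in pre-granulosa-like cells, above epithelial-like cells by 1.93 (SE 0.17) and stromal-like cells by 2.39 (SE 0.17), and lower in Sertoli-like cells at -3.26 (SE 0.27).

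Of the 18 heparan sulphate and co-factor genes tested, 17 were lower and 0 higher in germ-like cells, where 39.4% of all genes were lower and 38% higher. In endothelial-like cells 12 were lower and 2 higher, against 23.5% and 17.9% of all genes. Gpc3, a cell surface glypican, was lower in both, at -2.62 (SE 0.17) and -1.95 (SE 0.17), and Gpc6 was lower in endothelial-like cells at -2.24 (SE 0.18). In pre-granulosa-like against stromal-like cells 6 were higher and 8 lower, where 27.7% of all genes were higher and 23.2% lower. The sulphatase gene Sulf2 was lower in pre-granulosa-like cells at -3.51 (SE 0.17), and the sulphotransferase gene Hs6st1 and the syndecan gene Sdc4 were higher by 1.99 (SE 0.11) and 1.84 (SE 0.17). Sdc4 was also lower in stromal-like than in epithelial-like cells (-1.76, SE 0.17). Gpc4 and Hs6st2 were higher in pre-granulosa-like than in epithelial-like cells by 1.51 (SE 0.13) and 1.19 (SE 0.14), and Sulf1, the relative of Sulf2, was lower in Sertoli-like than in pre-granulosa-like cells at -2.61 (SE 0.31).

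Of 8 further ETS and growth-related target genes, 6 were higher and 1 lower in endothelial-like cells, where 17.9% of all genes were higher and 23.5% lower. In germ-like cells 2 were higher and 6 lower, against 38% and 39.4% of all genes. The genes called the other way, named after their values were seen, were Elk1 in endothelial-like cells (-0.66, SE 0.22) and Ccnd1 (0.79, SE 0.16) and Elk1 (0.34, SE 0.13) in germ-like cells. Ets2, Elk3 and Ets1 were higher in endothelial-like cells by 3.66 (SE 0.12), 2.58 (SE 0.11) and 2.38 (SE 0.11). Ets1 is also known as an endothelial transcription factor. Etv1, the third member of the Etv4 and Etv5 subfamily, was higher in stromal-like than in epithelial-like cells by 2.71 (SE 0.27), where Ets1 was higher by 2.03 (SE 0.15). Myc was lower in germ-like cells at -2.82 (SE 0.51).

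For each of the 9 genes the most alike genes across 21 clusters were taken from 12175 genes with 10 CPM or more in at least 1 cluster. For Fgf9 these were Cxadr (r = 0.814) and Lama5 (r = 0.812), and for Fgf10 Tnnt2 (r = 0.846) and Hoxd8 (r = 0.813). Fgfr1 was most like Rbfox2 (r = 0.924) and Lhfp (r = 0.922). Fgfr2 was most like D630039A03Rik (r = 0.965) and Emx2 (r = 0.93). Etv4 and Etv5 were each most like the other, followed by Camk2n2 (r = 0.864) and Rrs1 (r = 0.848). Dusp6 was most like Myo18a (r = 0.904) and Jup (r = 0.901), Spry2 most like Cand2 (r = 0.955) and Vangl2 (r = 0.953), and Spry4 most like Robo1 (r = 0.911) and Nav1 (r = 0.881).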

How the data were processed

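Single-cell RNA-seq was made from 3 lots of FOSCs. The authors extracted barcodes with UMI-tools, aligned reads to GRCm38 with STAR 2.7 and assigned them to genes with featureCounts 2.0.1, and they deposited UMI counts per gene and barcode, not normalized, in 1 table a lot. The annotation release and strand setting are not given in the sources used here. Without them, antisense transcripts that overlap Fgf10 and Fgfr1 in GENCODE M21 (123 and 164 exonic bases, neither listed in the tables) and their reads cannot be told apart from those genes.

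Barcodes with 200 to 9000 genes and at most 10% mitochondrial UMIs were kept. Seurat 5.3.0 (R 4.3.3) clustered them on 2000 variable genes, 50 principal components and resolution 0.8, after 102 detected genes (the 9 genes, the other pathway genes and check genes) had been held out. Clusters were named from 12 marker lists by score, with a lead of 0.25 over the next list. Scrublet in scanpy 1.11.5 called 4.06 to 5.93% of cells doublets, which were kept in the main result. Total UMIs were 87494974 to 141920060 per lot. Counts were summed per class and lot, leaving out neural crest-like cells, which had under 10 cells in 2 lots. The edgeR 4.0.16 fit used TMM, filterByExpr, glmQLFit and glmQLFTest on 18 sums of 270750 to 54563263 UMIs, with Benjamini-Hochberg adjustment over all 14861 genes and a threshold of 0.05. In simulated counts for pre-granulosa-like against epithelial-like cells, run on 14812 genes, 94.9% of genes changed by 2 and 85.9% of those changed by 1 on the log2 scale were recovered. Sums of 1 lot come from the same pool of embryos, so they are paired. Over 45 same-lot pairs their deviations from class means correlated at a median r of 0.197, with 38 pairs over 0.1. The floor of 3 counts is a mark of detection and does not measure counting error.

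The 9 genes and the lists were chosen with earlier results of these data known. In each contrast up to 3 other pathway genes per direction with the largest called fold changes are named, and for each of the 9 genes the 2 most alike genes across clusters. Alternatives were DESeq2 1.42.0, its size factors, no low-count filter, the lot as a block, added classes, each lot left out, other cell filters and clusterings, doublet removal, and single clusters left out, the last chosen after seeing the data.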

Additional observations from a re-analysis of the deposited data

How the results depend on the processing

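Of 972 log2 fold changes of the 9 genes recomputed under the alternatives, 950 kept their side of the threshold, 13 lost the call, 8 gained it and 1 reversed. Among the 950, those called kept their direction. A change of direction was not counted where neither value was called. The reversed value was Fgf9 in pre-granulosa-like against stromal-like cells with 30 principal components, at -0.777. The number of the 9 genes called stayed within 1.5 times in 108 of 108 recomputed counts, and the number of all genes called in 105 of 108. With the lot as a replicate block, genes called between stromal-like and epithelial-like cells rose from 4868 to 7739. Leaving out 1 lot gave 2892 to 4848, the lowest without lot 30. Between endothelial-like cells and the large somatic classes 6149 genes were called, and 3989 to 5979 with 1 lot left out, the lowest without lot 26. Fewer sums enter these last fits. The replicate block, which pairs the sums of a lot, gained the calls of Spry4 and Spry2 given with those contrasts and changed no other call of the 9 genes. Of 621 CPM values, 42 moved by more than 1 SD, 14 of them under TMM scaling. The share of cells with a UMI moved in 72 of 90 values after thinning. Classes of 16 to 39 cells in a lot limit Sertoli-like and steroidogenic-like values in lot 30 and macrophage-like values in lot 29. They also limit all mesonephric tubule-like and red blood cell-like values.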

Other observations

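Mesonephric tubule-like cells, a class of 82 cells left out of the tests, held several further FGF pathway genes at high levels. The ligand gene Fgf3 was 18.3 CPM in lot 26, 17.7 CPM in lot 29 and 46.9 CPM in lot 30, against means of 0.300 to 0.869 CPM in the 3 large classes. The feedback gene Spry1 was 73.1, 75.8 and 68.5 CPM, above its mean of 24.9 CPM in stromal-like cells. Fgf17 was 16.8 ± 13.8 CPM, and Il17rd, a membrane inhibitor of FGF signalling, was 43.6 ± 20.2 CPM against 14.7 ± 0.683 CPM in stromal-like cells. Fgf2 had no UMI in this class, where 3 counts over the 3 lots would be 2.25 CPM. These genes were picked after their values were seen, and the values are given with no test.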
